A study of Mus musculus with 7 samples.

Results

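The 10 genes described here encode the core proteins of the basement membrane: the type IV collagen chains Col4a1 and Col4a2, the collagens Col15a1 and Col18a1, the laminin chains Lama2, Lamb1 and Lamc1, the nidogens Nid1 and Nid2, and the proteoglycan Hspg2. They were listed by name as components of this layer, and all their probe sets were taken, whatever their values. They make up 10 of the 12393 genes named on the arrays and were measured by 17 probe sets. RNA of the left ventricle from males 21 months old was measured on Affymetrix MOE430A arrays, 1 for each mouse. The groups are 3 mice with the genotype eNOS (-/-) (M4, M10 and M140), which lack endothelial nitric oxide synthase, the vessel lining's nitric oxide enzyme encoded by Nos3, and 4 wild-type mice, eNOS (+/+) (M23, M125, M128 and M158). The labels state the purpose as finding transcripts that go with heart failure in old knockout males, and they note heavy mortality of knockout males by this age, so that the mice measured are survivors. Strain, the knockout construct and any exercise state are not given, although the series title and a keyword name exercise.

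The basement membrane is a thin sheet of extracellular matrix that wraps each cardiac muscle cell and underlies the endothelium of every vessel. Laminin trimers assemble on the cell surface through integrins and dystroglycan, type IV collagen forms a covalently linked network beside them, and nidogens and perlecan, the product of Hspg2, join the networks. In the heart several cell types secrete these parts, among them endothelial cells, pericytes, smooth muscle cells, fibroblasts and the muscle cells themselves, and loss of the laminin chain Lama2 causes a muscular dystrophy in mice.

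Col4a1 and Col4a2 lie head to head and share a promoter region, and a probe set of each gave the largest knockout-minus-wild-type differences among the members. Their start regions are printed first, with those of Col15a1, another collagen gene, and Hspg2, whose probe sets behaved differently, for comparison. The sequences come from RefSeq on the mouse build GRCm38.p6 and run 5′ to 3′ on the gene's own strand from 250 bases before to 50 bases after the annotated start, and capitals mark matches to GGGCGG (a GC box) or CCAAT, or to the same motifs on the other strand, CCGCCC and ATTGG.
Col4a1, chr8:11312777-11313076, minus strand: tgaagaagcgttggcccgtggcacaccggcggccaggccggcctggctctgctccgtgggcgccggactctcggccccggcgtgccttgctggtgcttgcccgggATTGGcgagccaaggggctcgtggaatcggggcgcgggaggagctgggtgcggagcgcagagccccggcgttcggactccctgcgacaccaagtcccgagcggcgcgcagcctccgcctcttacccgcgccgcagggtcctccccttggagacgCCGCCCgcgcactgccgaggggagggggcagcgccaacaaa
Col4a2, chr8:11312555-11312854, plus strand: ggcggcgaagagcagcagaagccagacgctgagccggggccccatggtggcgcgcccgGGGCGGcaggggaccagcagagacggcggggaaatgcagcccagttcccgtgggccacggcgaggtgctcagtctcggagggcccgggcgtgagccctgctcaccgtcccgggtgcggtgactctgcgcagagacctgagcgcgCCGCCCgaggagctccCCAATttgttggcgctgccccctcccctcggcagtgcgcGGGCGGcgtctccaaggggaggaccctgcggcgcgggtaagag
Col15a1, chr4:47207762-47208061, plus strand: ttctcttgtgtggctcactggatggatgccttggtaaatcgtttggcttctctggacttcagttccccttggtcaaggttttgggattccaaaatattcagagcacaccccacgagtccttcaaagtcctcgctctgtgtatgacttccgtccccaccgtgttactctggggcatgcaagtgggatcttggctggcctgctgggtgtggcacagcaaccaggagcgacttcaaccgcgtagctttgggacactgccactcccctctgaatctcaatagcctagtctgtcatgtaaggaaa
Hspg2, chr4:137468553-137468852, plus strand: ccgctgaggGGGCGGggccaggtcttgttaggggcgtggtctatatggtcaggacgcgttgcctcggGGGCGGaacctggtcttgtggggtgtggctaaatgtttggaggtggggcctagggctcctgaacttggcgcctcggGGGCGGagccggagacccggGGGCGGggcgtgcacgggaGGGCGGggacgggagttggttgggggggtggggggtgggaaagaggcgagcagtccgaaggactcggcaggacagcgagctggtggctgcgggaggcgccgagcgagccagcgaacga
The Col4a1 and Col4a2 windows overlap by 78 bases on chromosome 8, from 11312777 to 11312854, and their start sites are 21 bases apart. Each of the pair holds 1 CCAAT match, Col4a1 holds 1 GC box and Col4a2 holds 3, and their GC content is 74.0% and 73.7%. The Col15a1 window has neither motif and 52.3% GC, close to the median of 52.7% over all 32851 windows of the table, whereas the Hspg2 window has 5 GC boxes and 70.3% GC. Over the 9 windows found for 8 of the 10 genes, 7 held a GC box, against 35.7% of all windows. The only GC box of Col4a1 lies in the shared bases and is also a GC box of Col4a2, so that this site counts in both windows. The windows compared were not matched for GC content. A CCAAT match stood in 5 of the 9, against 37.4% of all, and TATAAA (or TTTATA) in 0 of the 9, against 13.6% of all. A match describes letters in the window only.

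The arrays differed in several respects besides the genotype label. Array medians lay between 670.6 and 699.0 intensity units, and the number of arrays limits the precision. The Nos3 probe set 1422622_at averaged 1231 ± 157.9 in eNOS knockout and 971.0 ± 170.2 in wild type (SD, n = 3 and 4), a log2 difference of 0.35 with an adjusted p of 0.420 in limma. The probe set's position relative to the deletion is not given, so this value does not check the labels. Myl7, an atrial myosin light chain, was high on the knockout array M10 (17556) and the wild-type array M125 (16097), and lay between 356.2 and 2926 elsewhere. The 5′ to 3′ ratio of the Gapdh control probe sets was 0.532, 0.521 and 0.759 on knockout M4, M10 and M140, against 0.0978, 0.777, 0.683 and 0.340 on M23, M125, M128 and M158 of the wild types, where the 3′ probe set had reached at least 99.8% of each array's upper limit. The experiment sheets place M140 and M128 on hybridization day 1, M125 on day 2, M4 and M10 on day 3, and M23 and M158 on day 4, so that day 1 alone holds both genotypes, and the M23 array is noted there as a combination of 2 processings. Nothing in the labels pairs the mice, and p-values measure the spread between these arrays, which contains mouse, tissue piece and day. In whole ventricle, fewer cells of a type and less RNA per cell cannot be told apart.

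No basement membrane gene passed the test between eNOS knockout and wild type. Of the 17 probe sets, 12, representing 9 genes, were bright enough to test, meaning above the 40th percentile of their own array on at least 3 arrays. On the log2 scale used throughout, log2(intensity + 16), 7 of the 12 had a higher mean in the knockout and 5 a lower one. Their median difference was 0.09, beside -0.0023 over all 13836 probe sets tested, and the range ran from -0.43 to 0.83. With limma, 0 of the 12 had an adjusted p under 0.05, and the same was true of 0.0% of all tested probe sets. An unadjusted p under 0.05 was found for 1 of the 12 (8.33%), beside 11.8% of all, and that one was higher in the knockout, beside 6.57% of all. The knockout and wild-type arrays did not overlap for 0 of the 12, beside 9.3% of all. In 6 of the 12, the knockout arrays M4 and M140 both exceeded every wild-type array. The same held for 10.9% of all tested probe sets, wherever M10 lay. In these 6 the third knockout array, M10, lay among or below the wild types. The plot of the 12 probe sets by array shows this arrangement for Col4a1, Col4a2, Col15a1, Lama2 and Nid1.

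**Figure D1:**
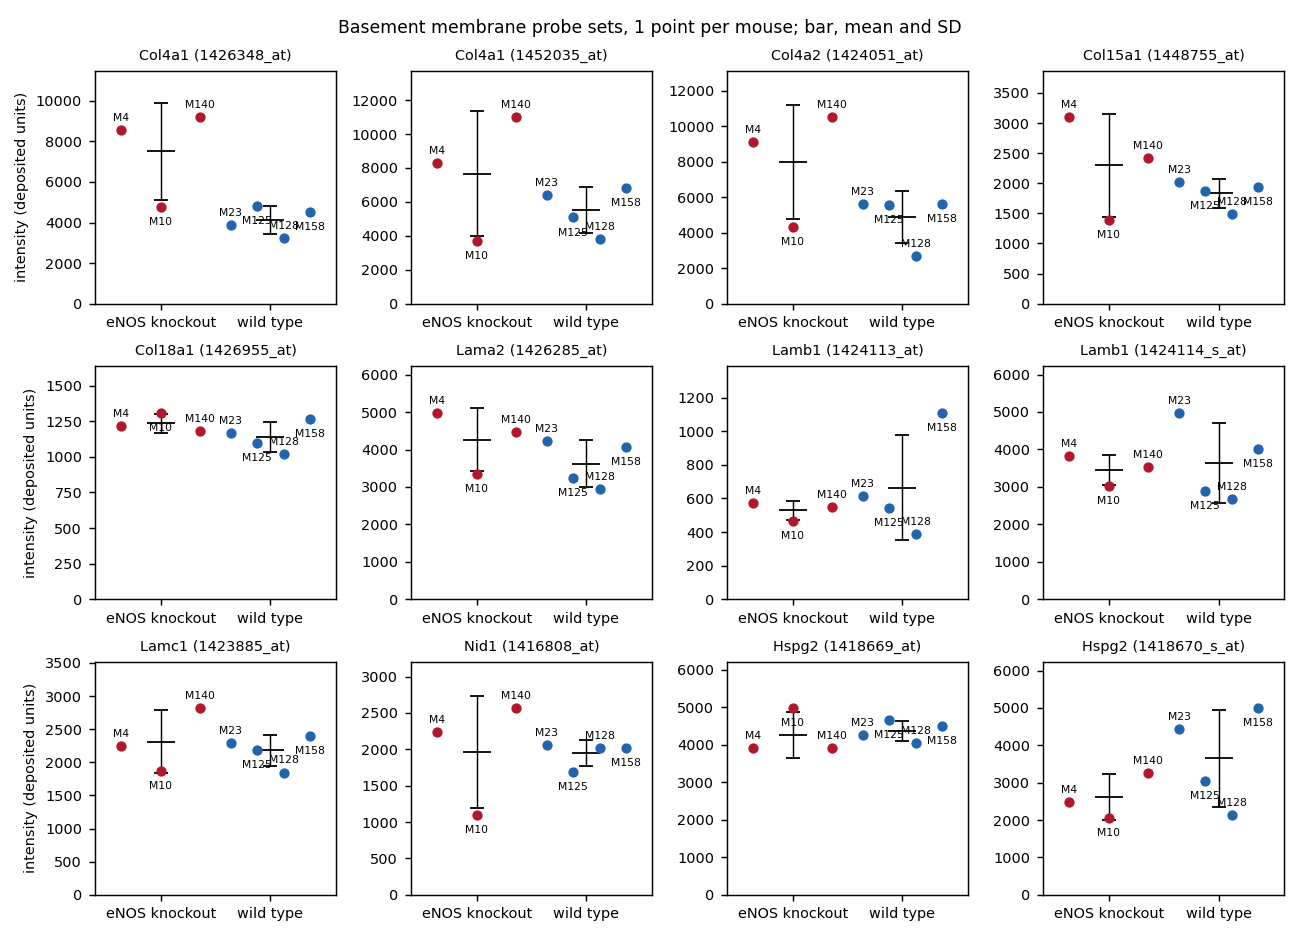
Deposited intensity (linear axis from 0) of each tested basement membrane probe set, 1 point per mouse, eNOS knockout in red on the left and wild type in blue on the right; bars show the mean and SD (n = 3 and 4). For Col4a2 the knockouts M4 and M140 read 9114 and 10505, above all wild-type arrays, while M10 read 4349.

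Type IV collagen had the largest values. Col4a1, which encodes the alpha1 chain, read 8563, 4766 and 9187 on probe set 1426348_at in knockouts M4, M10 and M140, against 3859, 4808, 3247 and 4508 in wild types M23, M125, M128 and M158. M4 and M140 lay far above the wild types, and M10 fell just under M125, the highest of them. The means were 7505 ± 2393 in the knockout and 4106 ± 696 in wild type, a log2 difference of 0.83 ± 0.25 (SE; 95% interval 0.24 to 1.41), with an unadjusted p of 0.0113 and an adjusted p of 0.294 in limma. Col4a1 was the only member with an unadjusted p under 0.05, and on this probe set only. Its other probe set, 1452035_at, read 8317, 3676 and 10988 in the knockouts, against 6410, 5079.7, 3826 and 6842 in the wild types. Here M10 was the lowest of the 7 arrays, and the difference was 0.36 ± 0.37 (adjusted p = 0.772).

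Col4a2, which encodes the alpha2 chain that joins the alpha1 chain in the same trimer, read 9114, 4349 and 10505 on 1424051_at in the knockouts, against 5610.4, 5582, 2661 and 5610.4 in the wild types. Of the wild types, M23, M125 and M158 lay close together and M128 far beneath them, with knockout M10 between. The means were 7989 ± 3228 in the knockout and 4866 ± 1470 in wild type, a log2 difference of 0.68 ± 0.37 (95% interval -0.18 to 1.54, adjusted p = 0.538). The collagen IV pair followed each other across the arrays. The SD of the log2 ratio of Col4a2 to Col4a1 over the 7 arrays was 0.28 against 1426348_at and 0.27 against 1452035_at, while the single probe sets had SDs of 0.66 for Col4a2 and 0.56 and 0.58 for Col4a1. These SDs are over all 7 arrays and describe likeness only.

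The multiplexin collagens gave smaller values. Col15a1, which links the membrane to the fibrillar matrix and whose loss in mice harms heart and skeletal muscle, read 3096, 1392 and 2412 in the knockouts, against 2025, 1873, 1491 and 1933 in the wild types. M4 and M140 were the highest arrays and M10 the lowest of all, so that the difference was 0.26 ± 0.26 (95% interval -0.33 to 0.86, adjusted p = 0.757). Col18a1, the source of the fragment endostatin, read 1213, 1309 and 1182 on 1426955_at in the knockouts, against 1170.2, 1097, 1021 and 1267 in the wild types. Its groups overlapped in a narrow band, with a difference of 0.12 ± 0.10 (95% interval -0.10 to 0.34, adjusted p = 0.697). The second Col18a1 probe set, 1418237_s_at, was too dim to test and read 568.0, 494.9 and 467.7 in the knockouts, against 430.4, 463.7, 424.7 and 376.1 in the wild types. All 3 knockouts lay above all 4 wild types there, but narrowly. The lowest knockout, M140, read 467.7 and the highest wild type, M125, read 463.7. Of all tested probe sets, 9.3% had groups apart in either direction. The log2 means differed by 0.26, and the readings lay near the level of the 40th percentile (514.4 to 542.3).

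The laminin chains showed no difference larger than their spread. Lama2, the alpha chain of the main muscle laminin, read 4982, 3344 and 4464 in the knockouts, against 4224, 3228, 2943 and 4068 in the wild types. M4 and M140 were again the highest and M10 lay within the wild types, with a difference of 0.23 ± 0.19 (95% interval -0.22 to 0.68, adjusted p = 0.710). Lamc1, the gamma chain found in most laminins, read 2242, 1867 and 2815 in the knockouts, against 2296, 2183, 1846 and 2392 in the wild types. M140 alone stood above the rest, and the difference was 0.07 ± 0.17 (adjusted p = 0.920).

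Lamb1, the beta chain, read 3825, 3031 and 3527 on 1424114_s_at in the knockouts, against 4978, 2897, 2674 and 4002 in the wild types. The highest arrays were the wild types M23 and M158, both of hybridization day 4, and the difference was -0.03 ± 0.23 (adjusted p = 0.974). The dimmer 1424113_at read 572.5, 466.4 and 550.9 in the knockouts, against 613.4, 543.1, 388.1 and 1110.2 in the wild types. The day 4 array M158 stood far above all others there, and the difference was -0.22 ± 0.30 (adjusted p = 0.844). Without M23 and M158, a pair chosen after the data were seen, the differences were 0.31 and 0.19 (adjusted p = 0.478 and 0.640). The sign also turned on 1424114_s_at without M10 (0.059), and on 1424113_at without M158 alone (0.060). The direction of Lamb1 thus changed with the arrays included.

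The linker proteins did not move together. Nid1, the nidogen that bridges laminin and type IV collagen, read 2237, 1094 and 2563 in the knockouts, against 2065, 1683, 2017 and 2017 in the wild types. M4 and M140 lay above all wild types and M10 far beneath all of them, so that the log2 means differed by only -0.07 ± 0.27 (adjusted p = 0.955). Nid2, its close relative, could not be tested: its probe set read 342.5, 389.0 and 391.2 in the knockouts, against 343.2, 371.1, 397.8 and 359.6 in the wild types, below the 40th percentile of every array. Hspg2, which encodes the heparan sulfate proteoglycan perlecan, read 3926, 4977 and 3907 on 1418669_at in the knockouts, against 4268, 4669, 4063 and 4494 in the wild types. M10 was the highest array, as for Col18a1, and M4 and M140 were the lowest, with a difference of -0.04 ± 0.14 (95% interval -0.36 to 0.27, adjusted p = 0.946). The second Hspg2 probe set, 1418670_s_at, read 2492, 2059 and 3269.6 in the knockouts, against 4434, 3037, 2132 and 4991 in the wild types. There the day 4 wild types M23 and M158 stood above all other arrays, and the difference of -0.43 ± 0.31 (adjusted p = 0.651) was 0.0086 without them (adjusted p = 0.993).

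**Figure D2:**
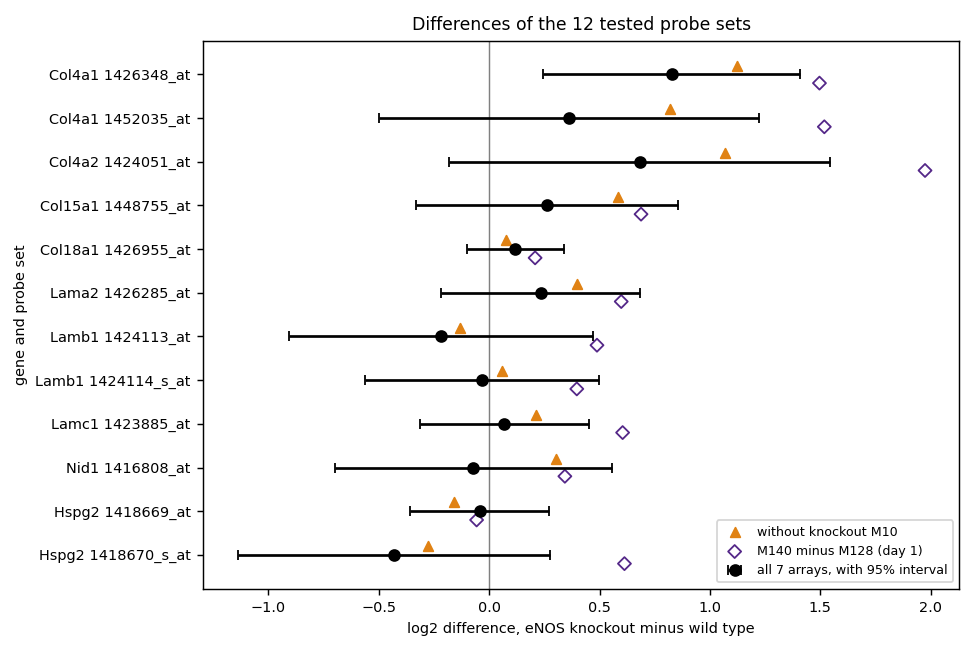
Log2 difference of each tested basement membrane probe set, eNOS knockout minus wild type, as a point with its 95% interval from limma, beside the same difference without knockout M10. Only the interval of Col4a1 1426348_at, 0.24 to 1.41, lies wholly above 0, and the estimates of both collagen IV genes move to the right without M10.

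The probe sets of a gene did not always tell the same story, as the plot of paired probe sets shows. For Hspg2 the log2 ratio of the 2 probe sets had an SD of 0.52 over the 7 arrays, more than the SD of either alone (0.13 for 1418669_at and 0.49 for 1418670_s_at). For Lamb1 the ratio had an SD of 0.37, mostly through M158, and for Col4a1 an SD of 0.38. Relative to 1426348_at, the Col4a1 probe set 1452035_at stood low on M10 (-0.59) and high on M23 (0.52) and M158 (0.39). M23 and M158 are the arrays with the lowest Gapdh 5′ to 3′ ratios, and whether that ratio bears on these probe sets was not tested. The remaining dim probe sets of Lamb1 (1451241_at), Lamc1 (1423886_at) and Nid1 (1448469_at) read between 293.1 and 403.8 on every array.

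**Figure D3:**
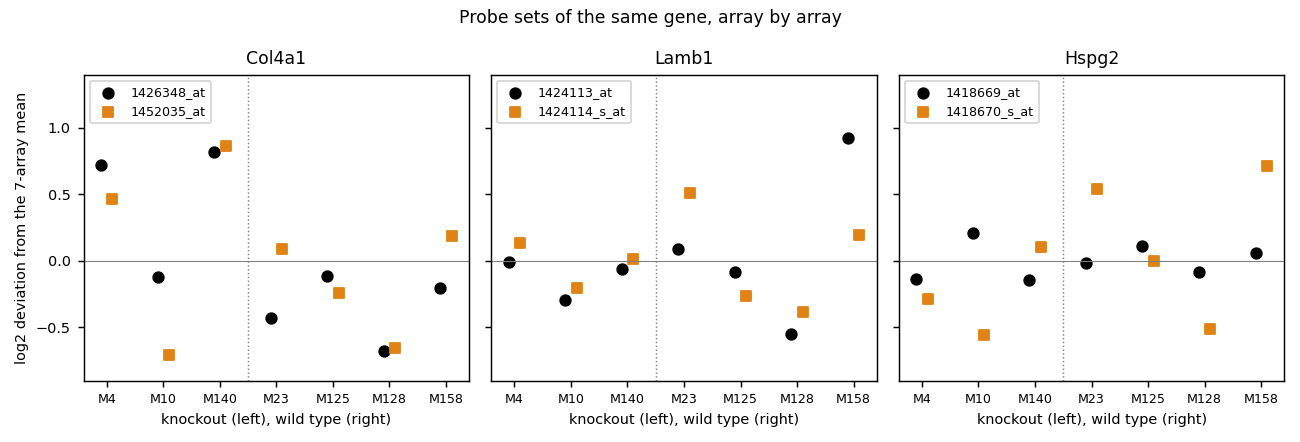
Log2 deviation from the 7-array mean for both tested probe sets of Col4a1, Lamb1 and Hspg2, knockout arrays left of the dotted line and wild-type arrays right of it. The Hspg2 pair parts on M10, M23 and M158, and the Lamb1 pair on M158.

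Several of these values depended on the knockout array M10. Without M10, the Col4a1 difference on 1426348_at was 1.12 (adjusted p = 0.0742 in limma), that of Col4a2 1.07 (adjusted p = 0.291) and that of Col15a1 0.58 (adjusted p = 0.276). Nid1 turned to 0.30 (adjusted p = 0.488). Then 6 of the 12 probe sets stood wholly above the wild types, beside 10.9% of all tested probe sets, and 1, Hspg2 1418669_at, wholly below, beside 10.9%. An unadjusted p under 0.05 was reached by 4 of the 12, beside 11.5% of all, and an adjusted p under 0.05 by 0 of the 12, beside 0.535% of all. With M10 and M125, the arrays high in Myl7, both left out, Col4a1 had 1.21 on 1426348_at (adjusted p = 0.115), Col4a2 1.16 (adjusted p = 0.356) and Col15a1 0.60 (adjusted p = 0.379). Leaving out M4 instead gave 0.01 for Col15a1 and 0.11 for Lama2. Without M140, the Col4a1 probe set 1452035_at had 0.03 and Col4a2 0.44.

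Within hybridization day 1, the knockout M140 exceeded the wild type M128 for 11 of the 12 probe sets, whereas 47.1% of all tested probe sets were higher on M140. The median log2 difference of the 12 was 0.60, beside 0.0 over all, and 7 reached 1.5-fold, beside 9.15% of all. Col4a2 was 3.95-fold and the Col4a1 probe sets 2.83-fold and 2.87-fold as high on M140 as on M128. M128 also had the lowest reading of all 7 arrays for 7 of the 12, beside 21.9% of all tested probe sets. The values compare 1 mouse with 1 mouse and carry no test. On day 3, M4 and M10, both knockouts, also differed: 10 of the 12 were higher on M4, with a median of 0.45 beside 0.0 over all, and 5 reached 1.5-fold, beside 3.0% of all. The other days hold 1 genotype each, so that between them day and genotype cannot be told apart.

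Members of the same assembly partly followed each other over the 7 arrays. Likeness was taken as the root mean square distance between log2 values centred on each gene's mean, for which each gene was represented by its brightest tested probe set. Among 8868 other genes, Col4a1 was the 5th nearest to Col4a2 (distance 0.25), and Col4a2 the 15th nearest to Col4a1. Lama2, Lamb1 and Lamc1, the chains of one trimer, deviated to the same side of their means on 7 of 7 arrays in each pairing. This was not particular to the trimer. Col4a1 also shared a side with each of these laminin chains on 7 of 7 arrays, but with Col4a2 on 5 of 7. The distances between the laminin chains were 0.18 (Lama2 and Lamc1), 0.19 (Lama2 and Lamb1) and 0.24 (Lamb1 and Lamc1). Many other genes were nearer: Lamc1 ranked 321st and Lamb1 460th for Lama2, Lama2 ranked 260th for Lamb1 and 649th for Lamc1, and for the remaining pair Lamc1 ranked 988th for Lamb1 and Lamb1 3600th for Lamc1. The second nearest gene to Lamc1 was Lama4, another laminin alpha chain (0.064), and the nearest to Col15a1 was Col5a1, a fibrillar collagen (0.13). These neighbours were chosen after their values were seen. Hspg2 was nearest to Col18a1, the closest of the 36 pairs of members (0.13, same side on 4 of 7 arrays), and both vary little. It was farthest from Col4a2 (0.67, same side on 2 of 7). Outside the lists, the genes nearest to the mean of the members were Kdelr3 (0.068), Pja2 (0.079), Coa5 (0.084), Lmod2 (0.086) and Stk38 (0.092). Genes that vary little are near to each other by this measure, the distances share the 7 arrays, and they carry no test.

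Cell sources were compared through marker lists, as the mean log2 deviation of each array from the 7-array mean. The 9 tested basement membrane genes stood at 0.27, -0.30 and 0.32 on knockouts M4, M10 and M140, against 0.10, -0.12, -0.37 and 0.09 in the wild types, in the order M23, M125, M128 and M158. The 14 fibroblast markers stood at 0.50, -0.62 and 0.72 in the knockouts, against -0.27, -0.16, -0.06 and -0.11 in the wild types. By these means both lists were high on M4 and M140 and low on M10. The fibroblast markers were not uniform. Their knockout-minus-wild-type difference had a mean of 0.35 and a median of 0.09, with 9 genes higher and 5 lower. Postn (1.595) and Mfap5 (1.19) were the largest, while Dcn had -0.04 and Lum -0.23. Their median of M4 minus M10 was 0.80. In the wild types the lists differed in order: the basement membrane genes were lowest on M128, where the fibroblast list was at its wild-type highest. The 17 endothelial markers stood at 0.045, 0.04 and 0.14 in the knockouts, against -0.20, 0.22, -0.27 and 0.04 in the wild types. The 13 smooth muscle and pericyte markers stood at -0.01, 0.015 and 0.15 in the knockouts, against 0.08, -0.07, -0.25 and 0.09 in the wild types, and the 20 cardiac muscle markers at 0.04, 0.02 and 0.06 in the knockouts, against -0.04, 0.045, -0.17 and 0.04 in the wild types. Of the cardiac markers, 8 of 20 had reached the arrays' upper limit in all 7 mice and 11 in at least 1, which holds their spread down. The 9 that never reached it stood at 0.06, 0.04 and 0.08 in the knockouts, against -0.06, 0.10, -0.28 and 0.06 in the wild types. The endothelial list, the smooth muscle and pericyte list and these 9 cardiac markers were not low on M10 and varied less between knockouts than the basement membrane genes, but like them they were lowest on M128. How far any of these cells accounts for the basement membrane values was not tested.

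**Figure D4:**
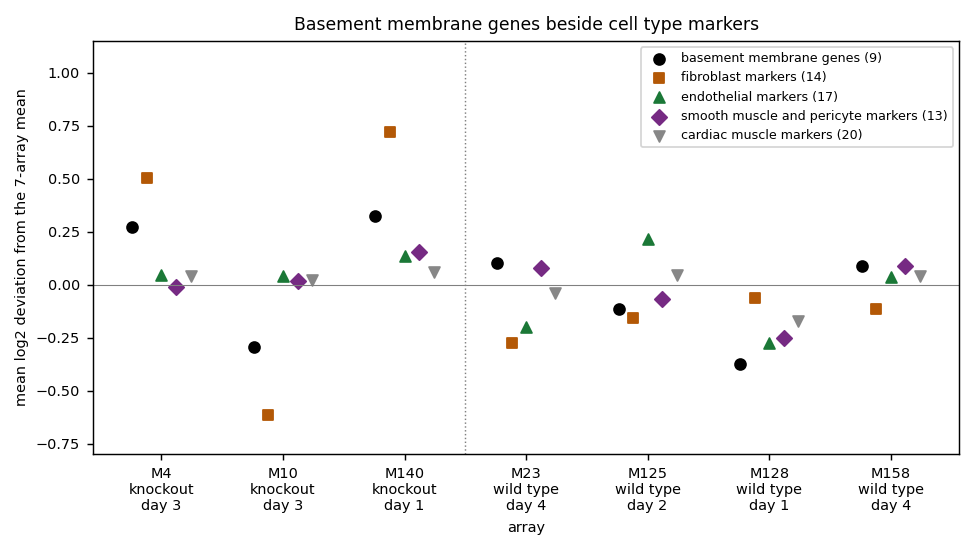
Mean log2 deviation from the 7-array mean for the tested basement membrane genes and 4 cell type marker lists on each array, knockouts left of the dotted line and wild types right of it, with the hybridization day below. Basement membrane genes (black) and fibroblast markers (brown) are high on M4 and M140 and low on M10, while the other lists stay between -0.27 and 0.22.

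In summed intensity the fibroblast markers spanned 70640.5 to 158350.4 in the knockouts, against 78399.6 to 90642 in the wild types. Of these markers 0 of 14 had an unadjusted p under 0.05, beside 12.2% of all genes. The endothelial markers summed to 37180.0 to 39666 in the knockouts, against 30156 to 41359 in the wild types. Of these 17, 2 had an unadjusted p under 0.05, both higher in the knockout, beside 6.77% of all 8869 genes in that direction: Vwf, the von Willebrand factor of endothelium (log2 difference 1.26, adjusted p = 0.224), and Esam, an endothelial junction protein (0.41, adjusted p = 0.366). The smooth muscle and pericyte markers summed to 57745 to 66697 in the knockouts, against 51950.1 to 62745 in the wild types. Their count was 1 of 13, higher, beside 6.77% of all genes: Mcam, an adhesion molecule of vessel walls (0.44, adjusted p = 0.343). Cnn1 and Itga8 were too dim to test. Of the 20 cardiac markers, 1 was higher at an unadjusted p under 0.05, Actn2 (0.36), beside 6.77% of all genes. At that p 1 was lower, Ckm (-0.66), beside 5.4%. The groups were apart and higher in the knockout for 4 of 20, Actn2, Mybpc3, Myom2 and Csrp3, beside 5.29% of all genes. Of these, Mybpc3 and Csrp3 each met the arrays' upper limit in 3 mice. For Myh6, Actc1 and 6 others, every mouse gave a reading at that limit. The macrophage markers stood at 0.08, 0.006 and 0.40 in the knockouts, against -0.41, -0.03, 0.195 and -0.24 in the wild types. Of these, 4 of 12 were higher at that p, beside 6.77% of all genes. The atrial markers stood at -0.56, 1.74 and -1.33 in the knockouts, against -1.24, 2.02, 0.62 and -1.25 in the wild types, high on the 2 arrays M10 and M125. Few markers of adipocytes, Schwann cells and epicardium (1, 2 and 2) could be tested, and 0 of them had an unadjusted p under 0.05, beside 12.2% of all genes. No gene of these lists had an adjusted p under 0.05, beside 0.0% of all genes.

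Genes that help build collagens, not type IV alone, were followed as a list of 14 on the arrays, all tested. Their median difference was 0.12, beside -0.0027 over all 8869 genes. An unadjusted p under 0.05 was found for 5 higher, beside 6.77% of all genes, and 1 lower, beside 5.4%. The adjusted p was 0.209 or more for every one. The groups did not overlap for 4 higher, beside 5.29% of all genes, and for 1 lower, Serpinh1, beside 4.89%. P4hb, the shared subunit of prolyl hydroxylase and a disulfide isomerase, read 8795, 8385 and 9145 in the knockouts, against 4030.1, 6438, 5604 and 5183 in the wild types. All knockouts, M10 included, lay above all wild types (0.74 ± 0.17, adjusted p = 0.209). P4ha2, a catalytic subunit of that hydroxylase, had 0.60, and Colgalt1, which adds galactose to collagen lysines, had 0.45, also without overlap. Loxl3, a lysyl oxidase relative, had 0.53 without overlap, and Lox itself, which cross-links fibrillar collagen and elastin, read 1587, 801.3 and 3179 in the knockouts, against 501.9, 687.8, 818.4 and 539.2 in the wild types (1.33 ± 0.41, adjusted p = 0.294). M140 and M4 were highest, as for collagen IV, and M10 lay within the wild types; a second Lox probe set had 0.28. Serpinh1, the collagen chaperone of the endoplasmic reticulum, ran the other way, with 3801, 2104 and 3771 in the knockouts, against 6831, 4464, 3972 and 6872 in the wild types (-0.78 ± 0.29, adjusted p = 0.366), and -0.26 on another probe set.

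Other basement membrane components had 21 genes on the arrays and 17 tested, with a median difference of 0.07. An unadjusted p under 0.05 was found for 1 with a higher knockout mean, beside 6.77% of all genes, and for 1 with a lower one, beside 5.4%. Fbln2, a fibulin that binds nidogen and perlecan, had a difference of 0.62 ± 0.23 (adjusted p = 0.377) with overlapping groups. Lamc3, a laminin gamma chain, read 946.4, 1036.6 and 995.3 in the knockouts, against 1357, 1206, 1300.3 and 1250.6 in the wild types. All its knockout arrays lay below all wild types (-0.36 ± 0.08, adjusted p = 0.205), beside 4.89% of all genes apart in that direction. Tinagl1, a matricellular glycoprotein of basement membranes, had 0.42 (adjusted p = 0.441).

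Of the laminin and collagen IV receptors, 19 were on the arrays and 16 tested, with a median of 0.04 and 0 at an unadjusted p under 0.05, beside 12.2% of all genes. The groups were apart and higher in the knockout for 3 of them, Utrn, Dag1 and Sgcb, beside 5.29% of all genes. Dag1, which encodes dystroglycan, the laminin receptor, read 15284, 15540.1 and 15533 in the knockouts, against 14816, 14466, 10934 and 14816 in the wild types (0.18 ± 0.12, adjusted p = 0.640). The separation was narrow except for M128 on the wild-type side, and 3 other Dag1 probe sets gave -0.13 to -0.25. Utrn, the dystrophin relative utrophin, had 0.39 (adjusted p = 0.479), with -0.00021 on another probe set. Its separation was narrow too, with 2961 on knockout M10 against 2950 on wild type M158. Dmd, dystrophin itself, had 0.27 and the integrin chain Itga3 had -0.12 (adjusted p = 0.591 and 0.625), both with overlapping groups. The heparan sulfate genes, which make the chains carried by perlecan, had 15 on the arrays and 11 tested, with a median of -0.02. Among them 1 had an unadjusted p under 0.05, Sulf2, which trims sulfate groups from heparan sulfate (0.55 ± 0.16, adjusted p = 0.276), with no overlap between the groups. That is 1 of 11 beside 12.2% of all genes at that p, and 1 of 11 apart and higher beside 5.29%. Hs6st1, a heparan sulfate sulfotransferase, had 0.23 and B3gat3, which acts on the chain's linker, had -0.11 (adjusted p = 0.548 and 0.705).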

How the data were processed

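The authors deposited 1 table of probe set intensities on a linear scale for 7 MOE430A arrays; the sources used here do not give its software or normalization. Equal values on at least 2 arrays occurred for 49.9% of probe sets, 4 of them basement membrane ones. The deposited experiment sheets, which hold other information and no measurement, gave the hybridization days per the file headers. The 64 control probe sets were left out of 22690, and a platform annotation table named 1 gene for 20380 of the remaining 22626.

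Values were taken as log2(intensity + 16). Probe sets above the 40th percentile of their array on at least 3 arrays (13836) were tested with limma 3.58.1 (lmFit, eBayes with trend, two-sided, Benjamini-Hochberg adjustment over all tested) in R 4.3.3; lists used each gene's brightest tested probe set (8869 genes). The fit was tested on simulated data. Pairs of arrays correlated at 0.973 to 0.992, and none was a duplicate.

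The text names all members and Nos3, the 3 genes with the smallest p of each pathway list, the 2 brightest and the 2 with the smallest p of each marker list where they bear on a result, and the 5 genes nearest the members; other names were chosen after their values were seen. The members and lists were chosen with earlier results of these data known. Alternatives were offsets of 1 and 64, quantile normalization, normexp (offset 50), a filter at the 60th percentile or none, array weights, eBayes without trend, hybridization day as a fixed or random block, the mean of a gene's probe sets, and leaving out arrays. Promoter sequences were read from a RefSeq table with Python 3.11.15.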

Additional observations from a re-analysis of the deposited data

Results flagged for a closer look

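In the group of 4 wild-type mice, single arrays stood far from the other 3, with a gap to the nearest array that made up more than 0.829 of the group's whole range (Dixon's 95% value). For independent, normally distributed values, chance gives about 1 in 20 such groups. Here 72 probe sets were looked at, of which 12 met this. They share the same 4 arrays and some were chosen by their values, so that the 12 cannot be read against that rate. Among basement membrane genes, Col4a2 on M128 had a share of 0.993, at 2661 where the other wild types read 5582 to 5610.4. Nid1 on M125 had a share of 0.885, at 1683 where the others read 2017 to 2065. Of related genes, Col4a5 (0.922, high), Dag1 (0.921, low) and Pja2 (0.843, low), a gene near the members' mean, also stood apart on M128.

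Among markers, M128 was low for the muscle genes Myom2 (0.918) and Csrp3 (0.961) and for Gsn (0.949), and high for Mbp (0.919). M125 was low for the pericyte gene Rgs5 (0.951) and for Krt19 (0.917), and high for the atrial gene Bmp10 (0.849).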

How the results depend on the processing

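No paired analysis was possible because no mouse number is shared between the groups. Of the 12 basement membrane probe sets, 6 (both of Col4a1, and Col4a2, Col15a1, Col18a1 and Lama2) kept a positive difference in all 19 settings. Col4a1 1426348_at passed the threshold with array weights only (0.92, adjusted p = 0.0412 in limma). It was 1 of 12 members to pass there, beside 619 of all 13836 tested probe sets. Knockouts M4, M10 and M140 had weights of 3.81, 0.635 and 0.886. Those of M23, M125, M128 and M158, the wild types, were 0.92, 0.728, 0.373 and 1.87. How far the Col4a1 result rests on M4, which counted most, was not tested. The counts given next are, in order, all probe sets with an adjusted p under 0.05 (0 as reported), members with an unadjusted p under 0.05 (1 as reported) and members whose groups were apart (0 as reported). Leaving out each array in turn gave 0 to 74, 0 to 4 and 0 to 7, and a member median of 0.025 to 0.26; the total was 74 without M10 and 27 without M140. With array weights the first count was 619 and the second 4. With hybridization day as a fixed block, which leaves M140 against M128, they were 1 and 3, the median was 0.60, and no count of groups apart exists. Without a filter the second was 2 and the third 1, the 60th percentile gave a total of 1, and the mean of a gene's probe sets gave 11 and 0. Leaving out M10 with M125 gave 2, 4 and 7, and leaving out M23 with M158 gave 1 for the total and 3 apart; these pairs were chosen after seeing the data. Differences that were negative and became positive were Nid1 with array weights (0.10), the fixed block (0.34), the random block (0.018), without M10 and M125 (0.23) and without M23 and M158 (0.0023); Lamb1 1424113_at with the fixed block (0.49) and without M23 and M158 (0.19); Lamb1 1424114_s_at with the fixed block (0.40), the random block (0.063) and without M23 and M158 (0.31); and Hspg2 1418670_s_at with the fixed block (0.61) and without M23 and M158 (0.0086). Leaving out each array gave -0.31 to 0.30 for Nid1, -0.43 to 0.060 and -0.165 to 0.13 for the Lamb1 probe sets in that order, -0.083 to 0.21 for Lamc1 and -0.16 to 0.017 for Hspg2 1418669_at. Leaving out an array shows only how far a value rests on that array, and the cause of these changes was not tested.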
